A study of Vitis vinifera with 6 samples.

Results

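The 6 genes described here are expansins of grapevine (*Vitis vinifera*), taken by their identifiers on the array from a list of expansins of leaf growth. The rule names no measured value, but the list was drawn up with earlier results of these data known. Each was read by 1 of the 34369 non-control probes of the array. They were VIT_06s0004g04860 (*EXPA6*), VIT_04s0079g00420, VIT_13s0067g02930 (*EXPA14*), VIT_17s0053g00990 (*EXPA18*), VIT_18s0001g01130 (*EXPA19*) and VIT_15s0021g02700 (*EXPB4*). The list also names VIT_04s0079g00420 as *EXPA11*, a symbol that the study gives to another locus, VIT_08s0007g00440, so the former is called by its identifier. The symbols *EXPA6* and *EXPA18* are used for these loci by the study, whereas *EXPA14*, *EXPA19* and *EXPB4* are used as the list gives them and could not be checked against another annotation.

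Expansins are small secreted proteins of the plant cell wall that loosen the bonds between cellulose and matrix polysaccharides, without cutting the polymers, so that a wall under turgor can extend. Alpha-expansins (EXPA) are the type known for acid-induced wall extension during growth, and beta-expansins (EXPB) form a sister family. In growing leaves expansin transcripts are generally found where cells are expanding, and the members of the family have separate patterns in time and tissue.

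RNA came from young leaves of cv Shiraz. The labels place the collection at the first signs of the phenotype, whereas the text of the study describes these leaves as sampled ahead of it. The 3 OXNAC33 samples carried *VviNAC33*, a NAC transcription factor, as a transgene under the *CaMV* *35S* promoter, which is active in most cells of the plant, and the methods give 3 independent transgenic lines, OX1, OX2 and OX3, as the replicates. The other 3 samples were labelled as controls. All plants were of the same clone and grown from anther calli. The methods describe vector control plants with a single-copy insert, but which control plants gave each array was not stated in the labels, so for controls the spread may be partly technical and p-values measure only the spread between these samples. Each sample was labelled with Cy3 and hybridized to its own array. The comparison asks what *VviNAC33* overexpression changed in the young leaf.

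Values are log2 intensities relative to the array's 75th percentile, so that 0 is the level of a fairly bright probe, and a change is OXNAC33 minus control on the log2 scale. An array had 69.4% to 74.9% of its probes well above background, and no probe was saturated. *STAY-GREEN 1*, a gene of chlorophyll breakdown, and genes of photosynthesis that the study annotates were well above background on all arrays for 5 of 5 loci. The probe of *VviNAC33* (VIT_19s0027g00230) read -5.22, -4.14 and -4.01 on control arrays 1, 2 and 3, and -0.54, -3.89 and -1.0 on OXNAC33 arrays 1, 2 and 3. OXNAC33 replicate 2 thus lay only just above the highest control, and the mean change of 2.65 (SE 0.88) did not pass the threshold of 0.05 (limma, Benjamini-Hochberg adjusted p = 0.116). Where the probe lies on the transcript was not given in the sources used here. The study describes line OX2 as its strongest expressor of the transgene. Whether this array holds RNA of that line was not stated in the labels, so the array or the reading of the probe is in doubt. It is therefore named by its label, and changes of named genes are also given without it. The arrays were scanned in 2 sessions, the first with control 1, OXNAC33 1 and OXNAC33 2, and the second with control 2, control 3 and OXNAC33 3.

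Of the 6 expansins, 4 were bright enough to be tested and 1 passed the threshold, as did 5.02% of all probes tested. *EXPA18* fell, by 3.53 on the log2 scale, which is 11.5-fold. Its arrays did not overlap between the groups, as was so for 35.5% of all probes. Its p-value lay close to the threshold and did not pass in every processing. *EXPA14* had a lower mean in OXNAC33 leaves but varied so much among arrays of the same group that the groups overlapped. VIT_04s0079g00420 and *EXPB4* had nearly the same mean in both groups. *EXPA6* and *EXPA19* were not well above background on any array.

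**Figure D1:**
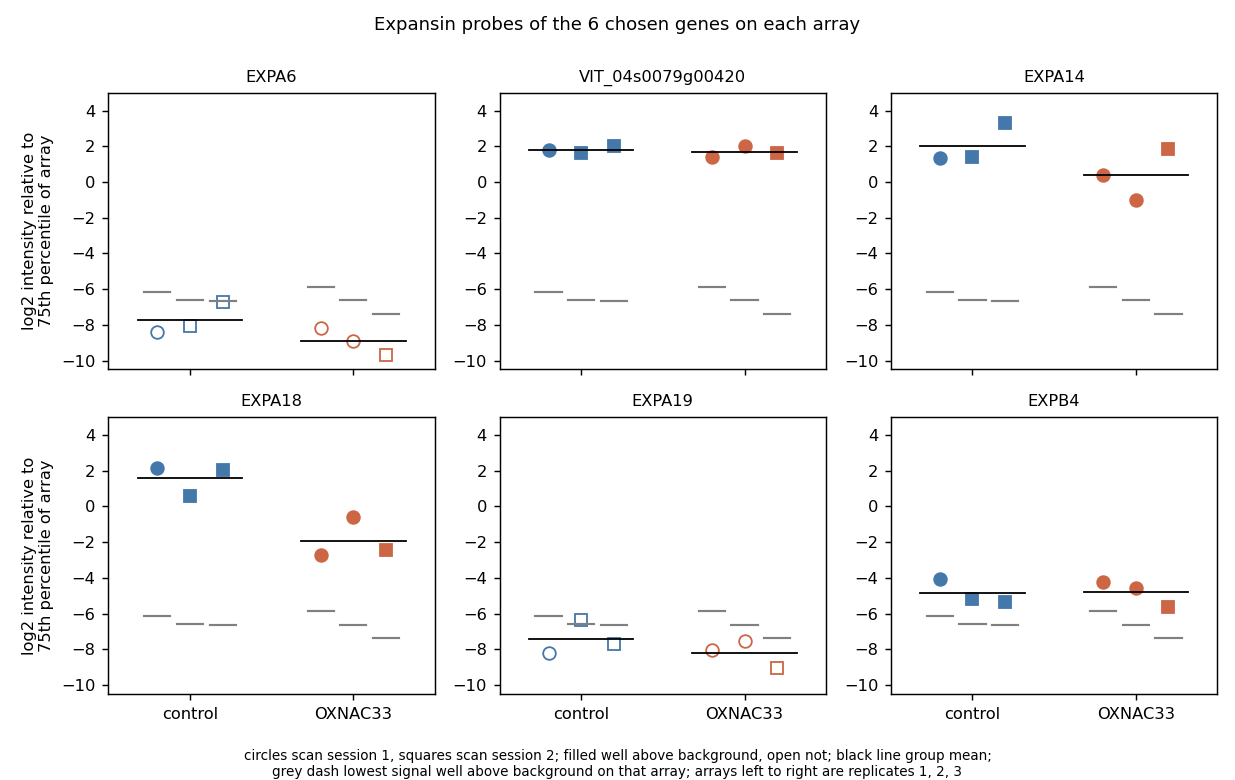
Log2 intensity relative to the array's 75th percentile (vertical axis) of the probe of each of the 6 expansins, for 3 control and 3 OXNAC33 arrays (horizontal axis), with circles for session 1, squares for session 2, filled symbols for spots well above background, black lines for group means and grey dashes for the lowest signal well above background on the array. *EXPA18* is lower on every OXNAC33 array than on any control array, *EXPA14* overlaps, VIT_04s0079g00420 and *EXPB4* have nearly level means, and every symbol of *EXPA6* and *EXPA19* is open.

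The alpha-expansin *EXPA18* read 2.17, 0.58 and 2.05 on control arrays 1, 2 and 3. On OXNAC33 arrays 1, 2 and 3 it read -2.75, -0.57 and -2.45. As processed intensities before scaling, these were 4112, 1225 and 4296 in controls and 115, 661 and 238 in OXNAC33. The lowest control, replicate 2, was still above the highest OXNAC33 array, which was the one labelled replicate 2, although these neighbours were close compared to the other arrays. The group means were 1.60 ± 0.89 (SD, n = 3) and -1.92 ± 1.18 (SD, n = 3), and the change was -3.53 (SE 0.68, 95% confidence interval -5.16 to -1.89, limma adjusted p = 0.0451). The interval ran from 3.71-fold to 35.8-fold lower. In order of change the probe ranked 68 from the lowest of the 23907 tested. In bulk leaf RNA, fewer cells that express a gene and less RNA per cell cannot be told apart.

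Across the whole array, 5.02% of the probes tested were called at the same threshold, 3.33% as lower and 1.69% as higher in OXNAC33, compared to 1 of the 4 tested expansins. The groups did not overlap for 35.5% of all probes, 20.4% being lower and 15.1% higher, and this was so for 1 of the 4 expansins. At an unadjusted p under 0.05, 27.3% of all probes passed, and again 1 of the 4. With so few genes these counts describe the genes and are no result about the group of 6.

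The size of the *EXPA18* difference was alike in both sessions, -3.83 within the first and -3.77 within the second, but its call lay close to the threshold. With the session as a block the change was -3.80 with a limma adjusted p of 0.0569, in a fit that called 0% of all probes. Without the array labelled OXNAC33 replicate 2 the change was -4.20 with an adjusted p of 0.0206, in a fit that called 10.7%. Leaving out any other single array, whether a control or OXNAC33 1 or 3, ended the call, with changes of -4.04 to -3.12 and adjusted p of up to 0.144. These fits called 0 to 9 probes in all. An exact two-sided permutation test of the 6 arrays gave p = 0.1, the smallest that 3 arrays against 3 can give.

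*EXPA14*, a further alpha-expansin, read 1.36, 1.40 and 3.29 on control arrays 1, 2 and 3. The OXNAC33 arrays read 0.41, -1.03 and 1.84 in the same order. Replicate 3 was the highest array in each group, and OXNAC33 replicate 3 lay above 2 of the 3 controls. Both of these arrays were of session 2, as was control replicate 2, which was not high. The spread was 3.82-fold among controls and 7.27-fold among OXNAC33 arrays, and the pooled within-group SD of 1.28 was larger than that of 99.1% of the tested probes closest to it in mean level. The means of 2.02 ± 1.1 and 0.41 ± 1.43 (SD, n = 3 each) gave a change of -1.61 (SE 0.83, 95% confidence interval -3.59 to 0.37, limma adjusted p = 0.263), so that the data allow anything from 12.1-fold lower to 1.29-fold higher. Within sessions the difference was -1.66 in the first and -0.51 in the second. With the session as a block the change was -1.09 (limma adjusted p = 0.341). The session term was 1.57, second minus first (unadjusted p = 0.0627 and adjusted p = 0.451 in limma). Leaving out single arrays, with no block, moved the *EXPA14* change between -2.33, without OXNAC33 replicate 3, and -0.90, without the one labelled OXNAC33 replicate 2. It was -0.97 without control replicate 3.

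VIT_04s0079g00420, which the list gives as an alpha-expansin, was the steadiest of the 4. It read 1.79, 1.63 and 2.01 in controls 1, 2 and 3. In OXNAC33 1, 2 and 3 it read 1.40, 2.03 and 1.63. The groups overlapped, with the highest and the lowest reading both on OXNAC33 arrays, and the pooled within-group SD was 0.26. Means were 1.81 ± 0.19 and 1.69 ± 0.32 (SD, n = 3 each), and the change of -0.12 (SE 0.24, limma adjusted p = 0.775) had a 95% confidence interval of -0.69 to 0.44, that is from 1.61-fold lower to 1.36-fold higher. Its sign was not settled. It was 0.0024 when arrays were scaled by their median, 0.067 when scaled by spike-in probes and 0.021 without OXNAC33 replicate 1. When the array labelled OXNAC33 replicate 2 was dropped it was -0.29. Those scalings moved the median change of all probes from -0.01 to 0.11 and 0.18.

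*EXPB4*, the beta-expansin of the list, was well above background on all 6 arrays, at intensities of 22.1 to 55.3 before scaling. Relative to the 75th percentile it read -4.04, -5.21 and -5.36 in controls 1, 2 and 3. The OXNAC33 arrays read -4.21, -4.56 and -5.64. Here the arrays separated by scan session and not by group. The 3 arrays of session 1 lay between -4.56 and -4.04, and the 3 of session 2 between -5.64 and -5.21. Group means of -4.87 ± 0.72 and -4.80 ± 0.74 (SD, n = 3 each) gave a change of 0.07 (SE 0.50, 95% confidence interval -1.11 to 1.26, limma adjusted p = 0.942). Within each session, however, OXNAC33 was the lower, by differences of -0.34 and -0.35, and with the session as a block the change was -0.34 (limma adjusted p = 0.313). Dropping the array labelled OXNAC33 replicate 2 gave -0.050. The session term itself was -1.25, second minus first (unadjusted p = 9.9e-04 and adjusted p = 0.0545 in limma, in a fit that called 1.59% of all probes for the session). Its part in the *EXPB4* readings beyond these values was not tested.

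*EXPA6* read -8.42, -8.09 and -6.71 in controls and -8.19, -8.90 and -9.69 in OXNAC33, at intensities of 1.6 to 9.9. *EXPA19* read -8.21, -6.34 and -7.71 in controls and -8.02, -7.56 and -9.04 in OXNAC33, at intensities of 2.5 to 10.1. The lowest signal well above background on an array was between 7.87 and 13.2 in intensity. On control replicate 2 the *EXPA19* spot, at 10.1, exceeded the lowest such signal of that array, 8.46, but was not itself called well above background. Neither alpha-expansin had a spot called well above background. They have only an upper bound on these arrays, so no fold change is given and neither was tested.

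**Figure D2:**
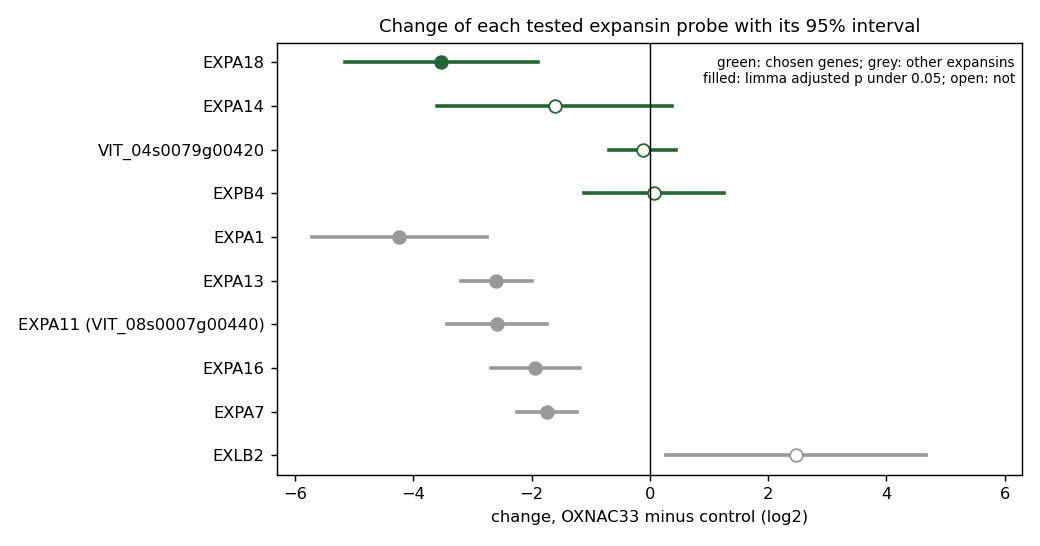
Change of OXNAC33 minus control on the log2 scale (horizontal axis) for the 4 tested expansins of the list (green) and 6 other expansins (grey), with 95% confidence intervals as bars and filled symbols for a limma adjusted p under 0.05. *EXPA18* at -3.53 is filled and lies among the lower grey symbols, while the intervals of *EXPA14*, VIT_04s0079g00420 and *EXPB4* cross 0.

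The changes of the 4 tested expansins were compared with each other in 6 pairs, by an exact two-sided permutation test on the difference of the 2 readings within each array. The change of VIT_04s0079g00420 minus that of *EXPA18* was 3.40, and that of *EXPA18* minus that of *EXPB4* was -3.60. In both pairs the within-array difference did not overlap between the groups. Each gave p = 0.1 in the exact permutation test, the smallest possible, and 0.3 after Benjamini-Hochberg adjustment over the 6 pairs, so that neither passed. The change of *EXPA14* minus that of *EXPA18* was 1.92 (exact permutation p = 0.3, adjusted 0.45), with overlap. The other pairs had exact p-values of 0.3 to 0.7.

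Likeness among the 4 genes over the arrays was unstable. After subtraction of group means, VIT_04s0079g00420 and *EXPA18* had a Pearson r of 0.90 (0.62 with Spearman rho = 0.60 before subtraction), and *EXPA14* and *EXPB4* one of -0.67 (-0.57 with rho = -0.71 before subtraction). Over the 5 arrays that remained when the one labelled OXNAC33 replicate 2 was dropped, these values after subtraction were 0.73 and -0.74, while the r of VIT_04s0079g00420 and *EXPA14* went from -0.14 to 0.93. These are descriptions over few arrays that share their scaling, with 2 groups and 2 sessions among them.

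Most of the 6 other expansins taken from the study's lists were lower in OXNAC33 leaves. Of 6 such genes, all tested, 5 were lower in OXNAC33 with a limma adjusted p under 0.05 and with no overlap between groups, compared to 3.33% and 20.4% of all probes, and 1 had a higher mean without passing. The study listed all of these but *EXPA1* as changed in these same samples. Their direction, calls and lack of overlap thus follow in part from how they were chosen and are not independent evidence. The shares of all probes, which were not chosen in this way, do not make the count a result about the family. The gene *EXPA1* was taken from the study's table of bound genes.

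The probe of *EXPA1* (VIT_01s0026g02620) read 1.66, 0.39 and 2.11 in controls and -3.19, -1.74 and -3.62 in OXNAC33, which was 18.9-fold lower (change -4.24, SE 0.62, limma adjusted p = 0.0361, and -4.79 without the array labelled replicate 2). Of the other expansin and wall genes well above background on all arrays, 32 in number, it was the one whose readings were most like those of *EXPA18*. Pearson r was 0.99 over the 6 arrays, which includes the fall in both, and 0.94 after subtraction of group means, or 0.87 after subtraction when the array labelled OXNAC33 replicate 2 was dropped. Both genes were lowest among controls on replicate 2 and highest among OXNAC33 arrays on the one labelled replicate 2. The nearest gene to *EXPA14* was a rhamnogalacturonan xylosyltransferase (VIT_13s0019g04760, r = 0.79), and the nearest to VIT_04s0079g00420 was a hydroxyproline-rich glycoprotein (VIT_01s0011g06270, r = 0.70). Dropping that array gave r of 0.82 and 0.61 for these 2 pairs. After subtraction of group means, r in the same order was 0.64 and 0.69 over the 6 arrays. Without that array it was 0.80 and -0.42, so the second likeness within groups depended on that array. *EXPB4* was most like a pectate lyase (VIT_01s0026g01670, r = 0.93, or 0.98 without that array), which read -0.94, -3.21 and -3.32 in controls and -0.55, -0.48 and -3.72 in OXNAC33 and was thus also higher on all arrays of session 1.

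**Figure D3:**
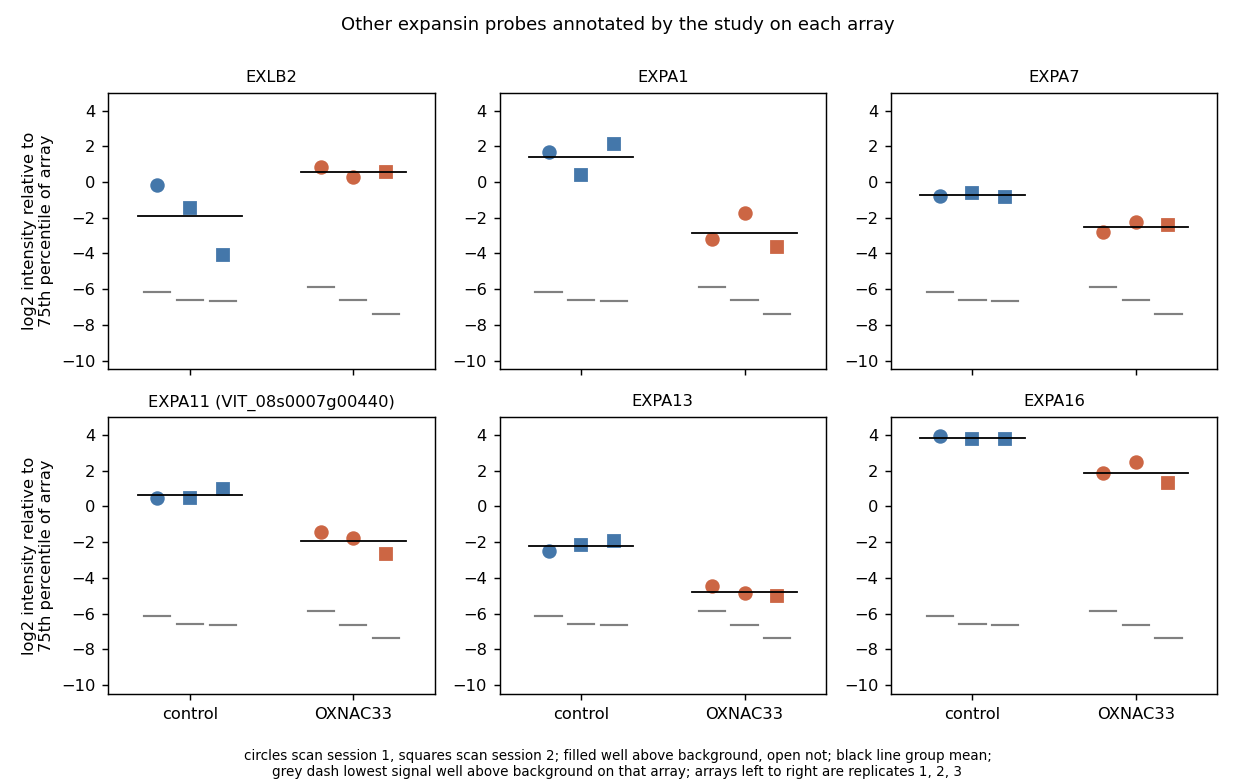
Log2 intensity relative to the array's 75th percentile (vertical axis) for 6 other expansins on 3 control and 3 OXNAC33 arrays (horizontal axis), with circles for session 1, squares for session 2, filled symbols for spots well above background, black lines for group means and grey dashes for the lowest signal well above background. In 5 panels every OXNAC33 array is below every control array, and in *EXLB2* control arrays spread over 15.1-fold below the OXNAC33 arrays.

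In *EXPA11* as the study names it (VIT_08s0007g00440), controls read 0.47, 0.46 and 0.99 and OXNAC33 arrays -1.45, -1.76 and -2.64, a change of -2.59 (SE 0.35, limma adjusted p = 0.0361). This locus passed the threshold, while VIT_04s0079g00420, which shares its symbol in the list, did not, and the difference between them was not tested. *EXPA13* (VIT_13s0019g01650) fell by 2.60 (SE 0.25), from -2.49, -2.16 and -1.91 to -4.46, -4.87 and -5.02. *EXPA16* (VIT_14s0108g01020) fell by 1.93 (SE 0.32) and *EXPA7* (VIT_06s0004g07970) by 1.74 (SE 0.21). Their limma adjusted p-values were 0.0361 to 0.0380. Without the array labelled OXNAC33 replicate 2 the changes were -2.68 for VIT_08s0007g00440, -2.55 for *EXPA13*, -2.23 for *EXPA16* and -1.85 for *EXPA7*. These calls remained in that fit, which called 10.7% of all probes. Leaving out any other single array ended them, in fits that called 0 to 9 probes in all. All 5 alpha-expansins lost their call with the session as a block, at a limma adjusted p of 0.0546 each, with changes of -4.50 to -1.71. That fit called 0% of all probes, and 0.0546 was its lowest adjusted p. The expansin-like gene *EXLB2* (VIT_00s0309g00050) had controls of -0.18, -1.45 and -4.10 against 0.82, 0.30 and 0.57 in OXNAC33, a change of 2.47 (SE 0.92, limma adjusted p = 0.146) that was 0.74 within session 1 and 3.34 within session 2. Without control replicate 3, the lowest array, it was 1.38, and without the one labelled OXNAC33 replicate 2 it was 2.60.

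Other cell wall genes, which include enzymes that build or cut polymers and structural proteins such as an extensin, changed in both directions. Of 41 that the study annotates in its table of bound genes, the portion held here, or in a separate transient overexpression experiment, 31 were tested, and 4 were called lower and 1 higher, compared to 3.33% and 1.69% of all probes. With the session as a block, or with any array but the one labelled OXNAC33 replicate 2 left out, none of these 5 genes was called. Those fits called only 0 to 9 of all the probes tested. The median change was -0.30, compared to -0.01 over all probes tested, and 67.7% of the 31 were below 0 compared to 50.8% of all probes. In 12 the groups did not overlap and OXNAC33 was lower, and in 3 it was higher, compared to 20.4% and 15.1% of all probes.

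The wall genes called lower were annotated to different roles, among them enzymes that cut cellulose or pectin. An endoglucanase (VIT_07s0005g00740) read 2.47, 2.09 and 4.07 in controls and -0.42, 0.51 and -1.30 in OXNAC33, a change of -3.28 (SE 0.64, limma adjusted p = 0.0458). A pectate lyase (VIT_07s0005g05520) fell by 2.52, and was well above background on 2 of 3 OXNAC33 arrays. A gene annotated as a BURP type of polygalacturonase (VIT_17s0000g08160) fell by 2.37, and whether its product cuts pectin was not tested. A synthase of the *CSLA* type (VIT_13s0074g00500), a type that makes mannan chains in *Arabidopsis*, fell by 1.82. The gene called higher was of the *CSLE* type (VIT_19s0015g00730), with a change of 1.66 (SE 0.23, limma adjusted p = 0.0361). Its readings of -2.68, -2.23 and -2.53 in controls and -0.86, -1.04 and -0.55 in OXNAC33 were narrow in both groups. In the order named, the session block gave these 5 genes changes of -3.40, -2.53, -2.48, -1.92 and 1.78 with limma adjusted p-values of 0.0612, 0.0581, 0.0563, 0.0581 and 0.0546. Dropping the array labelled OXNAC33 replicate 2 gave changes of -3.74, -2.93, -2.68, -2.12 and 1.77, all called, in a fit that called 10.7% of all probes.

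Among the other wall genes well above background on all arrays, the largest changes did not pass the threshold. A polygalacturonase (VIT_01s0127g00400) had a change of -2.75 (limma adjusted p = 0.118), a second pectate lyase (VIT_05s0051g00590) one of -2.51 (0.0774) and a leucine-rich repeat extensin (VIT_11s0016g02900) one of -2.21 (0.0992). With the array labelled OXNAC33 replicate 2 dropped, these were -2.75, -3.07 and -2.94, and the pectate lyase (limma adjusted p = 0.0441) and the extensin (0.0273) were called. On the other side were a xyloglucan endotransglycosylase (VIT_01s0011g06250) at 1.60 (limma adjusted p = 0.0512), a pectinesterase (VIT_05s0062g01160) at 1.09 (0.182) and the pectate lyase with the session pattern (VIT_01s0026g01670) at 0.91 (0.615). That last change was 0.43 within session 1 and -0.45 within session 2, and -0.01 with the session as a block (limma adjusted p = 0.98). Dropping the array labelled OXNAC33 replicate 2 took it to 0.36 and the endotransglycosylase to 1.67. The pectinesterase spot of OXNAC33 replicate 1 was an outlier and not in the fit, so its value rests on 2 OXNAC33 arrays and could not be tested with a further one dropped. Xyloglucan endotransglycosylases cut and rejoin xyloglucan, a polymer of the same matrix on which expansins act. Others of this family in the list went both ways and were not called. Their changes were -2.11 (VIT_12s0134g00160, limma adjusted p = 0.255), -0.96 (VIT_08s0007g04950, 0.323) and 0.69 (VIT_02s0012g02220, 0.467). Without the array labelled OXNAC33 replicate 2, VIT_12s0134g00160 was at -3.16 and called (limma adjusted p = 0.0229).

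**Figure D4:**
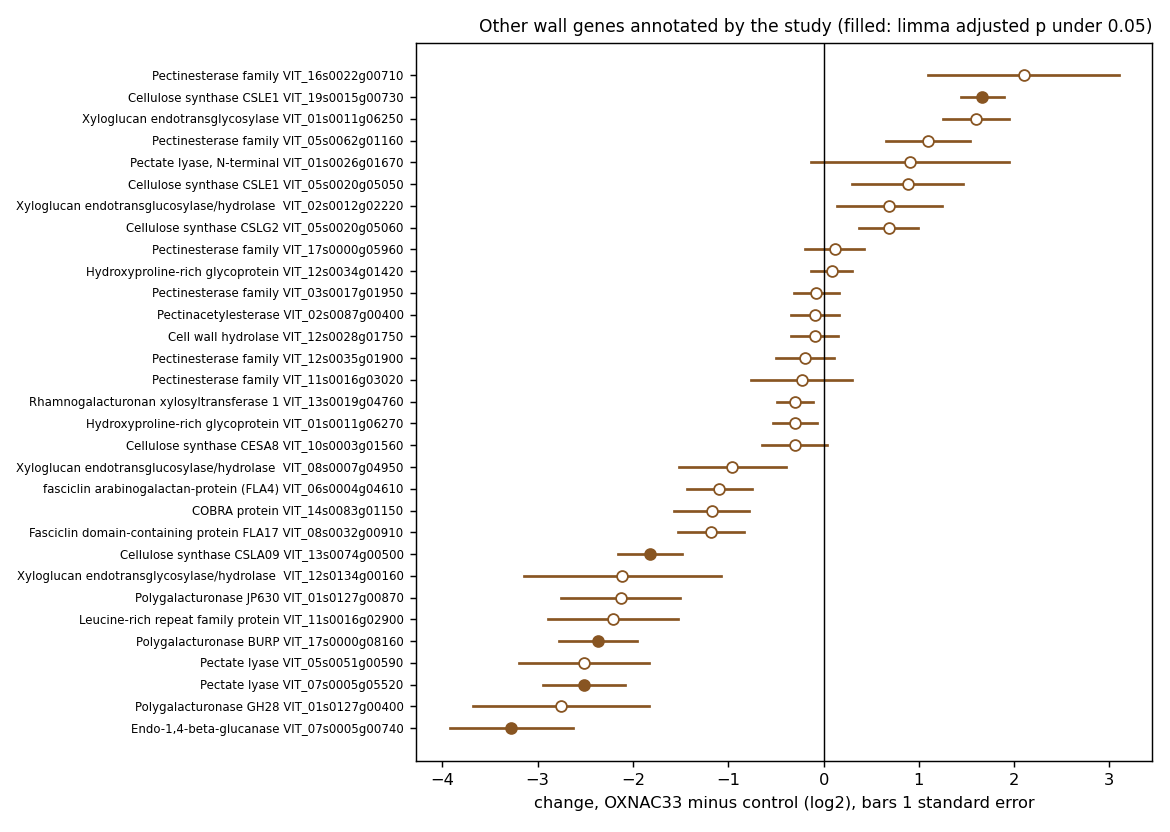
Change of OXNAC33 minus control on the log2 scale (horizontal axis) for the 31 tested wall genes (vertical axis), with bars of 1 SE and filled symbols for a limma adjusted p under 0.05. Filled symbols stand at -3.28, -2.52, -2.37, -1.82 and 1.66, and the others run from -2.75 to 2.10.

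*EXPA18* kept its direction in every processing tried, whereas its call did not hold in all of them. With all 6 arrays in the fit the change ran from -3.80 to -3.04 and the limma adjusted p from 0.0324 to 0.107, the higher values coming with a block, with array weights, without the filter on dim probes or with another background correction. *EXPA14* stayed below 0 throughout and was never called. No processing called VIT_04s0079g00420 or *EXPB4* in either direction.

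**Figure D5:**
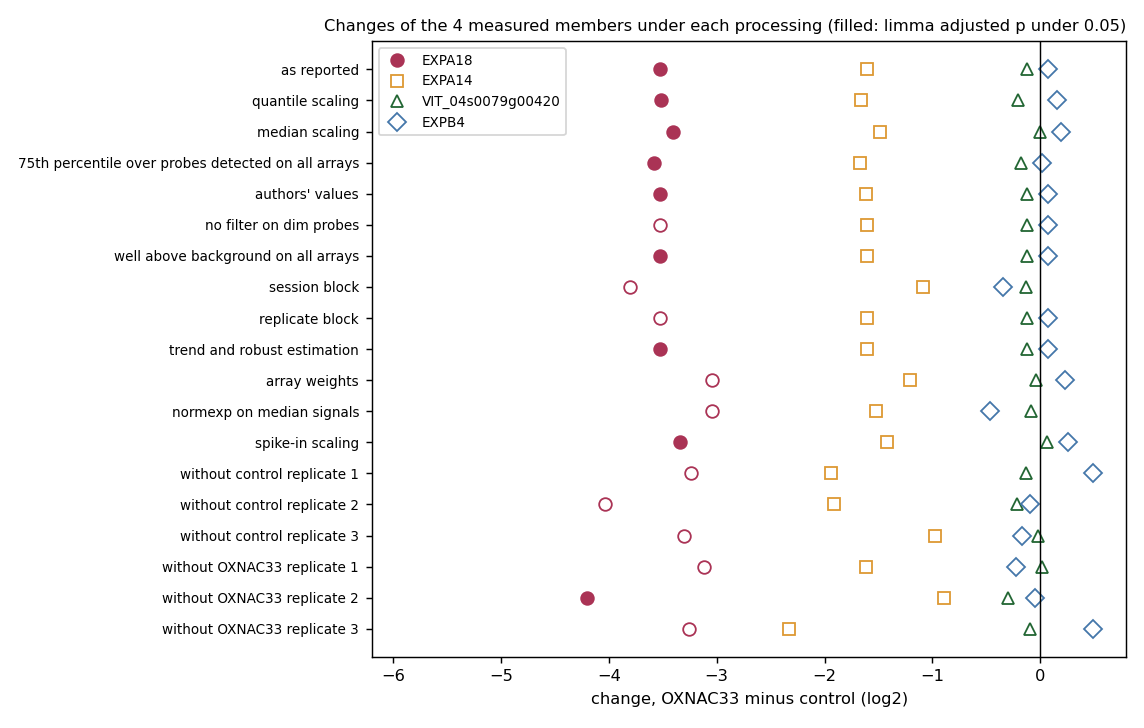
Change of OXNAC33 minus control on the log2 scale (horizontal axis) of the 4 tested expansins under each processing (vertical axis), with filled symbols for a limma adjusted p under 0.05. *EXPA18* stays between -4.20 and -3.04 and is filled in part of the rows, while VIT_04s0079g00420 and *EXPB4* lie on both sides of 0.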

How the data were processed

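Young leaves of 3 OXNAC33 and 3 control samples were hybridized by the authors to a custom Agilent array, 1 dye each, and scanned and read with Feature Extraction 10.5.1.1. Processed intensity values in the deposited scanner files were already corrected for background and spatial trend but not scaled between arrays. Deposited flags of 0 or 1 mark spots well above background, saturated and outlier spots. The authors also deposited a table of intensity values, which was a single multiple of the scanner values on each array (100% within 1%) and was used as an alternative.

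The log2 of each processed intensity was taken, outlier spots were dropped, and the 75th percentile of the array was subtracted. Of all probes, 23907 were tested, those with every array of at least 1 group well above background and at least 2 values in each group. The two-sided test was that of limma 3.58.1 (R 4.3.3), by lmFit followed by eBayes. Its p-values were adjusted over all of these probes by the method of Benjamini and Hochberg, with 0.05 as the threshold. The fit was tested on simulated data. The number of arrays limits the precision. Sessions came from scan times in the headers.

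The 6 genes and the other lists were chosen with earlier results of these data known. Genes named are the 6, *VviNAC33*, the other expansins and wall genes past the threshold. Wall genes with the 3 largest other changes in each direction among probes well above background on all arrays are named as well. The most alike gene is named for each of the 4 expansins of the list that were tested. The RefSeq table held 0 of these identifiers, so no coordinates or sequences are given. Alternatives were other scalings, filters, background correction, blocks, weights, variance models, the methods' t-test and leaving out each array.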

Additional observations from a re-analysis of the deposited data

How the results depend on the processing

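Of the alternatives, normexp and spike-in scaling were chosen after seeing the data, and normexp used median signals because the mean signals planned for it were not in the files, so that version was not run. The 1200 calls over all probes became 0 with no filter on dim probes, a session block, a replicate block or normexp, 1806 with trend and robust estimation, 2 with the methods' t-test after Benjamini-Hochberg adjustment and 5805 unadjusted, and 0 to 2554 when 1 array was left out. At an unadjusted p under 0.05, the fits with 0 calls passed 6314, 6844, 5997 and 5188 probes in that order. The share of lower calls, 66.2%, was 55.4% with median and 37.6% with spike-in scaling, and normexp moved the median change of all probes to -0.23.

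The *EXPA18* change was -3.53 (adjusted p = 0.0916) with no filter, -3.80 (0.0569) with the session block, -3.04 (0.0558) with array weights, -3.53 (0.139) with the methods' t-test after adjustment, -3.04 (0.0598) with normexp and -4.20 to -3.12 with 1 array left out. Each of these, except dropping the array labelled OXNAC33 replicate 2, took the calls among the 6 expansins from 1 to 0, so the range is 0 to 1. Called other expansins went from 5 to 0, and called wall genes from 5 to 0, with no filter, a session or replicate block, the adjusted t-test and normexp. The unadjusted t-test gave 9 wall genes, and leaving out arrays gave 0 to 5 other expansins and 0 to 10 wall genes. The cause was not tested. Same-numbered arrays correlated at 0.26, -0.22 and 0.19 in their deviations from group means, so the numbers were not taken as pairs, and the replicate block gave *EXPA18* a change of -3.53 with an adjusted p of 0.107 and 0 calls among the 6.

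The sign of VIT_04s0079g00420 turned to 0.0024 with median scaling, to 0.067 with spike-in scaling and to 0.021 without OXNAC33 replicate 1 (range -0.29 to 0.02 with 1 array left out). *EXPB4* turned to -0.34 with the session block and to -0.47 with normexp, and ran from -0.22 to 0.49 with 1 array left out, below 0 without control 2, control 3, OXNAC33 1 or OXNAC33 2. *EXPA14* kept its direction and stayed uncalled in every fit. *VviNAC33* was called with spike-in scaling (2.84, adjusted p = 0.0443) and when the array labelled OXNAC33 replicate 2 was dropped (3.69, 0.0198). Signal over background limits *EXPA6* and *EXPA19*, for which no value could be tested.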
